A study of Mus musculus with 32 samples.

Results

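Bcl11b is a zinc-finger transcription factor that both developing T cells and group 2 innate lymphoid cells (ILC2) need, and the sites described here are places on the genome where it was found in an ILC2 line but not in a T-lineage line. The sites are the Bcl11b ChIP-seq peaks of the line ILC2/b6 that the authors' annotation did not place at a promoter, that overlapped a GATA3 peak of the same line by at least 1 bp, and that overlapped no Bcl11b peak of the pro-T-like line Scid.adh.2c2. They numbered 5785 of the 21677 Bcl11b peaks of ILC2/b6, of which 16599 lay outside promoters. The sites were chosen by the Bcl11b lists of both lines and the GATA3 list of ILC2/b6, so their presence in ILC2/b6 and the absence of a Bcl11b peak in Scid.adh.2c2 are the definition and not a result. Absence from a list means that no peak passed the authors' limits there.

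The study compared 2 mouse lines, ILC2/b6, kept in OP9 medium plus the cytokines IL-33, IL-7 and IL-2 (10 ng/ml), and Scid.adh.2c2, kept without added cytokines as far as the labels say. RNA was sequenced from ILC2/b6 and from Scid.adh.2c2 cells that had been transduced with a guide RNA against Bcl11b (sgBcl11b-CFP) and from cells of each line with a control guide (sgControl-CFP), with 2 libraries in each of these 4 groups. ChIP-seq of Bcl11b, GATA3, Runx1 and Runx3 was made in both lines, with 2 libraries per factor and line. Fixation with DSG and then formaldehyde was described. The input libraries of both lines are named either FA or DSG, however, so it is not certain that all 4 factors had the same fixation. Each line stands for its cell type alone, and the labels used here do not say whether guide-bearing cells were cloned, how much Bcl11b protein was lost, or whether the 2 libraries of a group were grown apart. The p-values therefore rest on the spread of the libraries at hand, which may be technical. The control guide libraries of both lines carry a guide and its CFP marker too.

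Most of the marker RNAs given here matched the line names. ILC2/b6 had 146.4 to 162.7 RPKM of Gata3 and 305.8 to 338.7 RPKM of Il1rl1, the IL-33 receptor, over its 4 libraries, and at most 0.16 RPKM of the T-cell receptor component Cd3e and 0.231 RPKM of the recombinase gene Rag1. Thy1, a surface marker usual for ILC2, reached at most 0.231 RPKM. Rora and Il17rb, ILC2 genes too, went the other way between the control guide libraries of the lines. Rora was at 3.21 and 3.85 RPKM in ILC2/b6 and 6.37 and 6.83 RPKM in Scid.adh.2c2. Il17rb was at 14.2 and 15.2 RPKM in ILC2/b6 and 28.2 and 30.7 RPKM in Scid.adh.2c2. Scid.adh.2c2 had 172 to 174 RPKM of Cd3e, and 11 to 11.7 RPKM of Rag1 with the Bcl11b guide against 64.1 to 75.7 RPKM with the control guide. The depth was 34.7 to 43.7 M reads per library, as recovered from the RPKM steps, so that 3 reads on a 2-kb transcript corresponded to 0.0343 to 0.0432 RPKM.

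ILC2 are tissue lymphocytes that answer alarm cytokines such as IL-33 by secreting IL-5, IL-13 and amphiregulin. GATA3 is the zinc-finger factor that sets up and maintains this type 2 programme, and Runx1 and Runx3 are Runt-domain factors that bind DNA together with CBFβ and act in T cells and innate lymphoid cells alike. Distal elements at which several such factors meet are known to act as enhancers or silencers of genes that may lie far away.

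The DNA letters of the sites are not printed, since no sequence of the files' build (mm9) was used here. To show the start regions that some of the genes nearest to the sites use, 4 RefSeq promoters (build GRCm38.p6, 250 bases before to 50 after the annotated start) follow, for the 2 genes with the largest positive log2 fold change under the Bcl11b guide among called genes with such a site and for 2 ILC2 products that fell. Capitals mark GATA hexamers on either strand, spelled AGATAA or else AGATAG, or with T as the first letter TGATAA or else TGATAG. Capitals also mark Runx hexamers on either strand, spelled TGTGGT or else TGCGGT.
Cma1 promoter, chr14:55944626-55944925, minus strand: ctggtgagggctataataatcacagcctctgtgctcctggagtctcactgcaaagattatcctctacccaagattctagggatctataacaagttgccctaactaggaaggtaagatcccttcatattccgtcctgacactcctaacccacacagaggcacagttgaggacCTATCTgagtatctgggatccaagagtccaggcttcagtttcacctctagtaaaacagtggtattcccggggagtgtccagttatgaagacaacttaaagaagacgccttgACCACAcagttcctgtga
C5ar1 promoter, chr7:16259289-16259588, minus strand: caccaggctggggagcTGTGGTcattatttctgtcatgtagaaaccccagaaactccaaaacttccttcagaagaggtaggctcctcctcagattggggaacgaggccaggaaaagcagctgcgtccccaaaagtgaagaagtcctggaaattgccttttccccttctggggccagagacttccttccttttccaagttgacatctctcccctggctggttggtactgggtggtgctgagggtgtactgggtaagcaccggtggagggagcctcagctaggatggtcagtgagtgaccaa
Areg promoter, chr5:91139349-91139648, plus strand: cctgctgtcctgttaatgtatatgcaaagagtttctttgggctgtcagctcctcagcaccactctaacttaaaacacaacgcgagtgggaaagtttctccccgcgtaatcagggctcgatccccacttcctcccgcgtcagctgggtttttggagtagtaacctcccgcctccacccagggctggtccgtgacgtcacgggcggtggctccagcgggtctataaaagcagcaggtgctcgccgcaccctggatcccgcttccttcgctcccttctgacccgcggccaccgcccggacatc
Il13 promoter, chr11:53634653-53634952, minus strand: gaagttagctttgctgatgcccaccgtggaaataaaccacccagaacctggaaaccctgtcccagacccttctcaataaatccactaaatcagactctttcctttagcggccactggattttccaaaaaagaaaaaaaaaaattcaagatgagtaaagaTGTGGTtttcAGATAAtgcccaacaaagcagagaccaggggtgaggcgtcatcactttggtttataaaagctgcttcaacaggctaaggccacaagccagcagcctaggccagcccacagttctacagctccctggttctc
The Cma1 and Il13 windows each held 1 GATA and 1 Runx hexamer, the C5ar1 window held 1 Runx hexamer and no GATA hexamer, and the Areg window held neither. Of 32851 RefSeq promoters of this length, 29.8% held at least 1 of the GATA hexamers, 22.4% at least 1 of the Runx hexamers and 6.75% both. In ILC2/b6 a Bcl11b peak was annotated to the promoter of Areg and of Il13, and to neither that of Cma1 nor that of C5ar1. A hexamer is only a run of letters, and its use by a factor was not measured. RefSeq promoters were listed for 2527 of the 3446 genes to which the sites were annotated.

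Nearly all of the sites also carried a Runx peak in ILC2/b6, which the choice of the sites did not use. A Runx3 peak overlapped 5265 of the 5785 sites (91.0%, 95% Wilson interval 90.25 to 91.72%), and a Runx1 peak overlapped 4969 (85.9%, 84.97 to 86.77%). Both were present at 4818 sites (83.3%), Runx3 alone at 447, Runx1 alone at 151, and neither at 369 (6.38%). The same shares over all Bcl11b sites of ILC2/b6 outside promoters were 85.2% for Runx3 and 72.9% for Runx1. At the 1303 Bcl11b sites with GATA3 that both lines had, Runx3 was found at 95.2% and Runx1 at 86.4%, so there the Runx1 share lay within 1 percentage point of that of the ILC2/b6 sites. At the 2619 shared sites without GATA3, Runx1 was found at 60.1% and Runx3 at 83.9%. Each list was made by the authors from pooled libraries, so these shares have no replicate error, and the intervals cover counting error only.

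In Scid.adh.2c2 most of the same places carried none of the 3 partners. A GATA3 peak of that line overlapped 1164 of the sites (20.1%, 19.11 to 21.17%), a Runx3 peak 307 (5.31%) and a Runx1 peak 120 (2.07%), and 4461 sites (77.1%) had no peak of any of the 3. GATA3 peaks of Scid.adh.2c2 stood without either Runx factor at 999 of the sites and with at least 1 at 165. At the shared sites with GATA3, Scid.adh.2c2 had GATA3 at 80.4%, Runx3 at 80.7% and Runx1 at 69.2%, and 3.61% had no partner peak. Of the ILC2-only Bcl11b sites with Runx but without GATA3 in ILC2/b6, 0.440% had a GATA3 peak in Scid.adh.2c2. The mirror set, 2068 distal Bcl11b sites with GATA3 found in Scid.adh.2c2 alone, had a GATA3 peak in ILC2/b6 at 30.3%, a Runx3 peak there at 25.5% and a Runx1 peak at 7.59%. The Runx lists of Scid.adh.2c2 were shorter, with 20523 Runx3 and 13664 Runx1 peaks against 44938 and 26258 in ILC2/b6. Its GATA3 list held 36973 peaks against 33709. The part of list length in these shares was not tested.

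**Figure D1:**
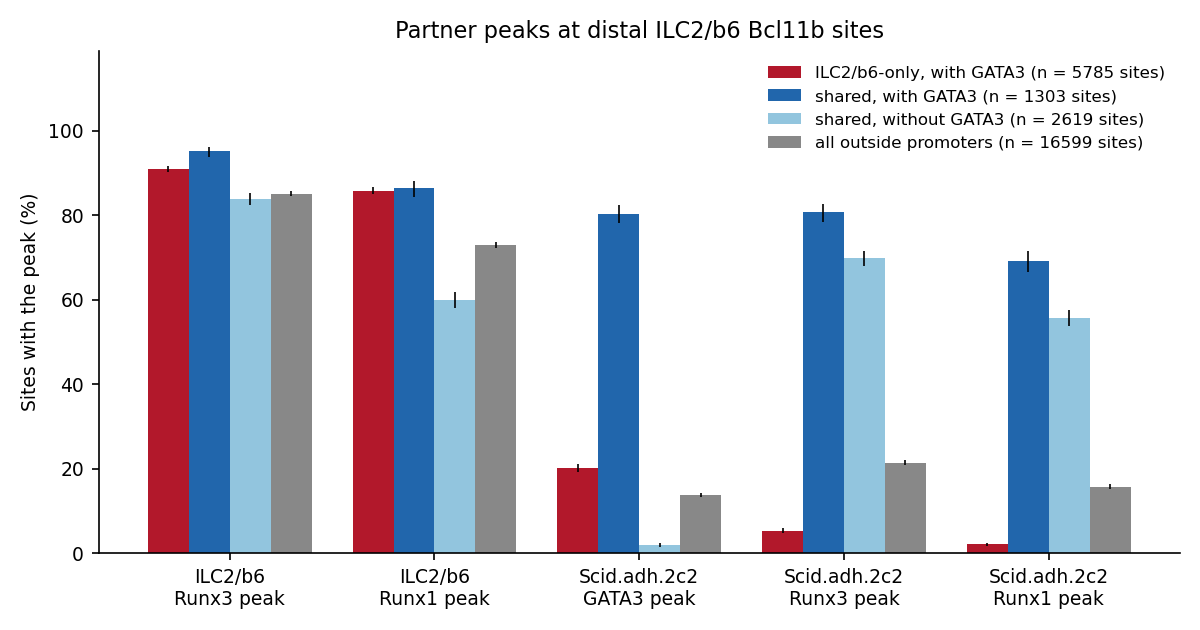
Percent of sites with an overlapping peak of Runx3 or Runx1 in ILC2/b6, or of GATA3, Runx3 or Runx1 in Scid.adh.2c2, for the ILC2-only distal Bcl11b sites with GATA3 and 3 other sets of distal Bcl11b sites. Bars are shares and error bars are 95% Wilson intervals of counting error. The ILC2-only sites with GATA3 stand at 91.0% for Runx3 and 85.9% for Runx1 in ILC2/b6, and at 20.1% for GATA3 in Scid.adh.2c2.

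The partner peaks lay close to the Bcl11b peak, and the Runx peaks closer than GATA3. The median distance between centres was 24 bp for Runx1, 25 bp for Runx3 and 35 bp for GATA3. Whether the chromatin for GATA3 and for the Runx factors was fixed alike is not certain, and its part in these distances was not tested. Centres were within 50 bp at 79.5% of the sites with Runx1, 79.5% of those with Runx3 and 65.3% of all sites for GATA3, and within 100 bp at 95.1%, 95.1% and 86.6%. Where a Runx3 peak was present, its centre was the nearer at 3205 sites (60.9%), the GATA3 centre at 1975 (37.5%), and both were equally near at 85. Peaks of 1 list share a fixed width, 255 bp for Bcl11b, 289 bp for GATA3, 265 bp for Runx1 and 253 bp for Runx3, so any overlap already bounds the distance, and the GATA3 overlap was part of the choice of the sites.

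**Figure D2:**
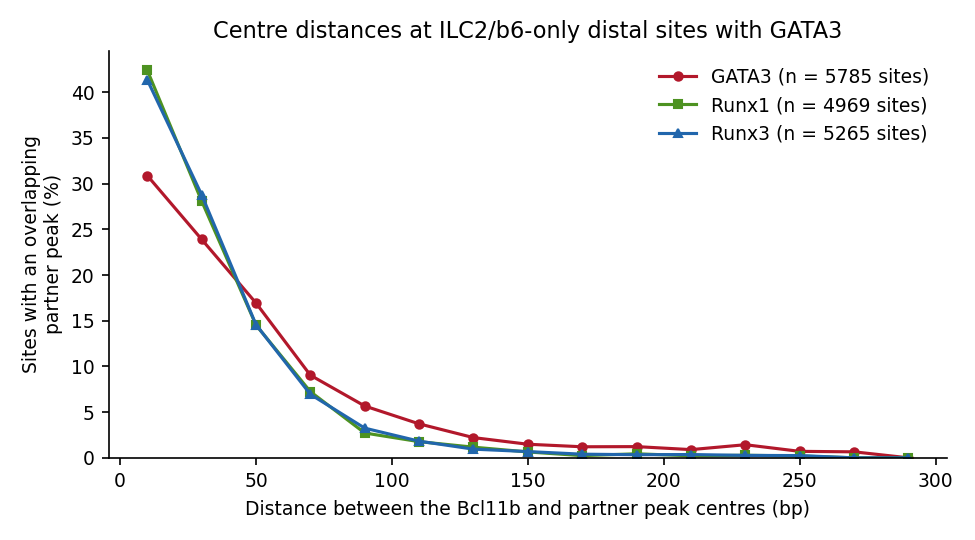
Distance in bp between the centre of each Bcl11b peak and the centre of the overlapping GATA3, Runx1 or Runx3 peak in ILC2/b6, in 20-bp bins, as percent of the sites with that partner. All 3 distributions peak at the Bcl11b centre, and the GATA3 one is the broadest, with a median distance of 35 bp against 24 bp for Runx1 and 25 bp for Runx3.

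Peak scores are those of the authors' peak caller and have no unit. The Bcl11b score ran from 15, the lowest value in the list, through a median of 28.4 to 320 at these sites, against a median of 27.2 over all distal ILC2/b6 sites and 39.4 at the shared sites with GATA3. The overlapping partner peaks ranked high in their own lists, with a median GATA3 score of 44.9 against 25.7 over the whole GATA3 list, a median Runx3 score of 84.3 against 43.4, and a median Runx1 score of 49.1 against 31.5. With the sites split into 10 classes by Bcl11b score, the share with Runx1 was 69.3% in the lowest class and 97.8% in the highest, and that with Runx3 84.1% and 97.2%. The share with a GATA3 peak in Scid.adh.2c2 lay between 15.9 and 23.8% with no steady order. It was 23.8% in the lowest class, and the 2 highest classes had the lowest shares, 15.9 and 17.3%. The part of peak strength in the Runx shares was not tested.

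The 1164 sites that also had a GATA3 peak in Scid.adh.2c2 had a median ILC2/b6 GATA3 score of 82.6, against 38.3 at the other 4621 sites. Their Bcl11b scores were alike, with medians of 27.5 and 28.6, and their Runx1 shares were 81.1% and 87.1%. The 369 sites with neither Runx factor in ILC2/b6 were the weaker ones by score, with a median of 21.7 for Bcl11b and 33.4 for GATA3, and 27.9% of them had GATA3 in Scid.adh.2c2.

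The limits of the choice cut through near neighbours. The shortest GATA3 overlap among the sites, 1 bp, was at Rasal3 (chr17:32545406-32545660, Bcl11b score 91.2), while Bcl11b peaks at Osbpl8 (chr10:110565650-110565904, score 15.3) and Ppp2r5c (chr12:111741680-111741934, score 59.3) were left out by a gap of 1 bp. A site at Mettl8 (chr2:70884814-70885068, score 44.1) lay 1 bp from a Scid.adh.2c2 Bcl11b peak and was kept, and sites at Gm14005 (chr2:128325630-128325884, score 29.3) and Mbnl1 (chr3:60305136-60305390, score 25.2) overlapped one by 1 bp and were not. A Scid.adh.2c2 Bcl11b peak lay within 500 bp of 172 sites, within 1000 bp of 307 and within 5000 bp of 971 (16.8%). The median overlap of the sites with the GATA3 peak was 237 bp. With every overlap required to reach at least 50% of the shorter interval, also that with Scid.adh.2c2 Bcl11b peaks, the choice gave 5415 sites.

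The sites were spread through introns and intergenic DNA, farther from gene starts than other distal Bcl11b sites. Introns held 3104 (53.7%) and intergenic DNA 2428 (42.0%), and the rest fell on transcript ends (83), exons (75), 3′ UTRs (47), 5′ UTRs (28) and non-coding transcripts (20). The median distance to the nearest annotated start was 23.5 kb, with the middle 50% between 9.08 and 57.5 kb, against 16.2 kb over all distal ILC2/b6 sites and 28.7 kb for the Scid.adh.2c2-only sites with GATA3. Within 10 kb of a start lay 27.3% of the sites, against 38.9% of all distal sites and 64.0% of the shared sites without GATA3. More than 100 kb from a start lay 777 sites (13.4%). The term distal follows the authors' promoter annotation, and the nearest site lay 0.102 kb from a start. Across chromosomes the sites made up 27.8% (chromosome 19) to 41.6% (chromosome 9) of the distal Bcl11b sites.

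Repeats held 1332 of the sites (23.0%), against 17.2% of all distal sites and 6.45% of the shared sites without GATA3. Long terminal repeats of endogenous retroviruses held 494 sites (8.54%), LINE elements 338 (5.84%), SINE elements 269 (4.65%) and DNA transposons 154 (2.66%). Some single repeat kinds recurred more often than at other sites. URR1A copies carried 47 of the sites (0.812%), against 36 of the other 10814 distal Bcl11b sites (0.333%), and 45 of the 47 had a Runx1 peak, 46 a Runx3 peak and 3 a GATA3 peak in Scid.adh.2c2. Tigger7 copies carried 25 sites (0.432%, against 0.148% of the others) and MTE2b copies 24 (0.415%, against 0.130%). These repeats were picked after their counts were seen and carry no test.

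Some repeated DNA cannot be told apart by short reads. Among the 4818 sites with both Runx factors, 14 pairs (28 sites) matched each other in all 4 scores within 1%. The Coro2a pair lay in RLTR3_Mm retroviral copies within 1 intron (chr4:46588150-46588404 and chr4:46596723-46596977), with Bcl11b scores of 192.2 and 192.5, GATA3 scores of 307.7 at both, Runx1 scores of 425.5 at both and Runx3 scores of 734.4 and 734.2. Another pair, at Dynlt1f copies on chromosome 17, scored 222.4 and 221.3. The signal of each copy in such a pair is uncertain.

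Most sites stood alone. With sites no more than 10 kb apart joined, 4088 (70.7%) had no neighbour of their kind, and 1697 (29.3%) fell into 759 groups, of which 135 had at least 3 sites. The densest groups had 6 sites each, at Coro2a (chr4:46571635-46597796, 26.2 kb long), Itgb3 (chr11:104464004-104492890, 28.9 kb) and Arid5b and Rtkn2 (chr10:67568092-67598537, 30.4 kb). Runx3 was present at all 6 of the Itgb3 sites and at 5 of the 6 Coro2a sites. Itgb3 encodes the integrin β3 chain, and its level under the guides is given with the trafficking genes.

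The site with the highest Bcl11b score, 320, was annotated to Klhl35 but lay in intron 4 of Gdpd5 (chr7:106577448-106577702), with scores of 49.8 for GATA3, 194 for Runx1 and 436.7 for Runx3. Klhl35 itself was barely transcribed, at 0.146 and 0.206 RPKM with the Bcl11b guide and 0.124 and 0.176 RPKM with the control guide. The other 9 of the top 10 lay at Mir6897, Mgat5, Dus2, Dynlt1b, Rdm1, Furin, Sfi1, Tigit and Mir6950, with scores from 311.8 to 239.4. Repeats held 4 of these, a LINE copy at Mgat5 (chr1:128982692-128982946, score 304.1), retroviral copies at Dus2 (chr8:108531038-108531292, score 288.7) and Sfi1, and a U2 snRNA copy at Rdm1, the only one of the 10 with a GATA3 peak in Scid.adh.2c2 (score 184.1). The Sfi1 site had a GATA3 score of 1086. Tigit, an inhibitory receptor of lymphocytes, had its site within its own gene (chr16:43655346-43655600, intron 3, score 248.7), and Furin, a proprotein convertase, had one 14124 bp upstream (chr7:87564319-87564573, score 265.3).

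The sites were annotated to 3446 genes by the nearest start, which need not be the gene a site acts on. Of these, 2261 genes had 1 site, 671 had 2, 378 had 3 or 4 and 136 had 5 or more. The genes had higher levels in the line that carried the sites. Their median level with the control guide was 4.75 RPKM in ILC2/b6 and 1.49 RPKM in Scid.adh.2c2, and for genes with 5 or more sites it was 13.3 and 0.521 RPKM. Genes linked to the ILC2-only distal sites with Runx and without GATA3 had nearly the same medians, 4.79 and 1.66 RPKM. At least 1 RPKM in ILC2/b6 but not in Scid.adh.2c2 was seen for 545 of 3393 measured genes (16.1%) and the opposite for 97 (2.86%), against 1457 (5.95%) and 940 (3.84%) of all 24475 genes. Among genes with 5 or more sites these were 46 of 133 (34.6%) and 1 (0.752%). The 2 lines were normalised in separate tables, so levels across them are set side by side without a test.

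The genes nearest to the sites were called changed by the Bcl11b guide in ILC2/b6 more often than the average gene, in both directions and mostly by small amounts, as were genes nearest to other ILC2-only Bcl11b sites. Of 2233 such genes that passed the filter on low values, 290 were higher with the Bcl11b guide (13.0%, against 8.32% of all 10526 genes tested) and 242 were lower (10.8%, against 6.21%), by limma with Benjamini-Hochberg adjusted p below 0.05. Their median log2 fold change was 0.01, against 0.02 over all genes, and the median size without sign was 0.103 against 0.0857. Changes of 2-fold or more were rare, 16 of the 51 higher genes (31.4%, with 0.485% of all genes so called) and 3 of the 12 lower genes (25%, with 0.114% so called) being linked to a site, while linked genes were 21.2% of the genes tested. Among the 16, C5ar1, Cd244 and Pilrb1 passed the filter only through the Bcl11b guide libraries, which fixed their rise. With libraries centred on their median gene, which moved the median of all genes to -0.02, the counts were 228 higher and 316 lower. Without Bcl11b guide replicate 1 they were 182 and 158, without Bcl11b guide replicate 2 they were 153 and 142, and with no filter on low values 17 and 18.

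The share called grew with the number of sites. It was 20.6% of 1388 genes with 1 site, 26.2% of 451 with 2, 30.6% of 288 with 3 or 4 and 37.7% of 106 with 5 or more, against 14.5% of all genes tested in either direction. Lower genes went from 9.29 to 20.8% over these 4 classes and higher genes from 11.3 to 17%. Among genes that had other distal Bcl11b sites but none of these, the shares were 14.4% of 1925 with 1 site, 16.5% of 502 with 2, 24.7% of 215 with 3 or 4 and 17% of 47 with 5 or more. Of 5604 genes with no distal Bcl11b site in ILC2/b6, 10.3% were called. Genes linked to the most similar set, the ILC2-only distal sites with Runx but without GATA3, were called nearly as often as those described here, 12.1% higher and 10.7% lower of 2431, and many genes have both kinds of site. The 1256 of them without any of the sites described here were called at 9.79% higher and 7.96% lower.

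Level moved with these shares and was compared in bins of control-guide RPKM. Linked genes were called at 25.3% below 2 RPKM, 18.6% between 2 and 5, 19.9% between 5 and 20, 28.5% between 20 and 100 and 38.8% at 100 RPKM or more. Genes with no such site were called at 12.3%, 10.4%, 10.8%, 13.6% and 19.5% in the same bins. Genes under 1 RPKM in both control guide libraries entered the lowest bin only if both Bcl11b guide libraries reached 1 RPKM, which fixed their rise. That bin held 34 higher and 10 lower linked genes, and 94 higher and 18 lower genes with no such site. At 100 RPKM or more, 41 of 160 linked genes were lower and 21 higher. Linked genes without any Bcl11b site in Scid.adh.2c2 were called at 31.4% of 640, and those with one at 20.8% of 1593. These are descriptions, since the same genes share sites, level and length.

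**Figure D3:**
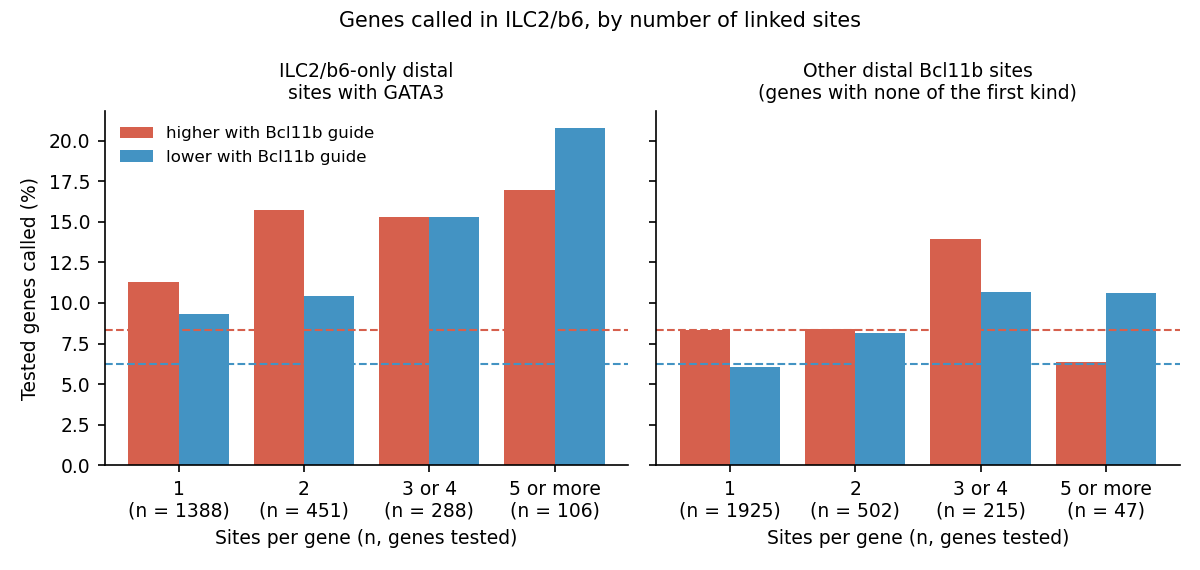
Percent of tested genes higher or lower with the Bcl11b guide in ILC2/b6, by the number of ILC2-only distal Bcl11b sites with GATA3 annotated to the gene (left) and, for genes with none of these, by the number of other distal Bcl11b sites (right). Dashed lines are the shares over all genes tested, 8.32% higher and 6.21% lower. In the left panel the lower share goes from 9.29% to 20.8%.

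Called and uncalled linked genes differed in how many also had a Bcl11b site shared by the lines, 46.9% of higher and 48.4% of lower genes against 57.9% of uncalled ones. The median number of sites was 1 in every class, the mean was 2.03 for higher, 2.09 for lower and 1.69 for uncalled genes, and the median of the top Bcl11b score was 38.8, 41.5 and 32.4. Runx3 overlapped 89.6%, 91.9% and 90.1% of their sites, and GATA3 peaks of Scid.adh.2c2 18.4%, 19.4% and 21.0%.

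Bcl11b itself had 2 of the sites. Its RNA was at 7.04 and 7.24 RPKM with the Bcl11b guide and 6.85 and 6.33 RPKM with the control guide in ILC2/b6 (log2 fold change 0.11, limma adjusted p = 0.278). In Scid.adh.2c2 it was at 47.1 and 46.8 RPKM with the Bcl11b guide and 47.0 and 49.5 RPKM with the control guide (-0.04, adjusted p = 0.455). A small edit made by a guide need not lower the RNA, so these values do not check the labels.

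The 2 largest rises among linked genes were at Cma1 and C5ar1, genes of mast and myeloid cells. Cma1, the mast cell protease chymase, was at 24.1 and 24.3 RPKM with the Bcl11b guide against 1.93 and 2.5 RPKM with the control guide, a log2 fold change of 3.20 ± 0.09 (SE, n = 2 each, limma adjusted p = 9.33e-06). Its single site lay 21870 bp downstream of the start, in intergenic DNA (chr14:56541515-56541769), with a Bcl11b score of 139.9. C5ar1, the receptor for the complement fragment C5a, was at 3.87 and 3.89 RPKM against 0.130 and 0.046 RPKM, or 371 and 337 reads against 12 and 4 reads (log2 fold change 2.90), with 1 site in an intron (chr7:16839682-16839936, score 122.1). In both genes the libraries of the 2 guides were far apart, which adds no support for genes picked by their change. C5ar1 passed the filter on low values only through the Bcl11b guide libraries, which fixed its rise.

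Both genes stood in the list of 21 myeloid and mast cell markers, of which 3 had a site. The third, Itgam, stayed below 1 RPKM in all 4 libraries. Of the 8 markers of the whole list that were tested, with a site or without, 5 were higher and 1 lower. C5ar1 and Mcpt4 were tested only because both Bcl11b guide libraries reached 1 RPKM, so their rise was fixed by the filter. Mcpt4 was at 2.31 and 1.77 RPKM with the Bcl11b guide against 0.762 and 0.839 RPKM with the control guide. The list summed to 106.4 and 108.2 RPKM with the Bcl11b guide against 29.9 and 31.4 RPKM with the control guide, and Cma1 and the mast cell tryptases Tpsb2 and Tpsab1 made up most of it. Tpsb2, with no such site, was at 44.7 and 44.9 RPKM against 5.18 and 5.66 RPKM, while Cebpb was at 8.38 and 8.92 against 11.3 and 9.59 RPKM, and Cd68 at 0.917 and 1.11 against 1.58 and 1.65 RPKM. The defining markers Spi1, Csf1r, Lyz2, Elane and Ms4a2 were at 0 in all 4 libraries, Fcer1a reached at most 0.028 RPKM, Cpa3 0.056 RPKM and Mpo 0.042 RPKM. In bulk RNA more cells of a type and more RNA per cell cannot be told apart.

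Other large rises were at genes of varied function. Cd244, a SLAM-family receptor best known on natural killer cells, was at 5.55 and 5.92 RPKM with the Bcl11b guide against 0.4 and 0.387 RPKM with the control guide (2.80), and its site lay in its first intron (chr1:173490217-173490471, score 32.4). Htra1, a secreted serine protease, was at 7.92 and 8.11 against 2.32 and 2.19 RPKM (1.63 ± 0.06, adjusted p = 2.08e-05), with an intronic site (chr7:138112137-138112391, score 125). Fndc3a, a membrane protein with fibronectin type III domains, had 9 sites and was at 68.6 and 72.5 against 28.2 and 34.7 RPKM (1.16 ± 0.09, adjusted p = 0.000363). None of these groups of libraries overlapped, which adds no support for genes picked by their change with 2 libraries per guide. The activating receptor gene Pilrb1 (log2 fold change 1.92), the ATP-gated channel gene P2rx1 (1.71), the glucose transporter family gene Slc2a6 (1.52), the actin regulator gene Avil (1.29) and the leukotriene receptor gene Cysltr2 (1.15) completed the 10 largest rises, with 1 to 3 sites each. Pilrb1 has near-identical relatives, so its reads may be shared. C5ar1, Cd244 and Pilrb1 passed the filter on low values only through the 2 Bcl11b guide libraries, so their values are given as a description with no test.

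The largest falls included an ILC2 effector. Areg, which encodes the EGF receptor ligand amphiregulin, was at 243 and 254 RPKM with the Bcl11b guide against 476 and 470 RPKM with the control guide (-0.93 ± 0.04, adjusted p = 2.08e-05), and its 2 sites were intergenic and upstream (chr5:91553173-91553427, score 24.6, and chr5:91539407-91539661, score 21.2). Fabp5, a fatty acid binding protein, was at 262.6 and 250.5 against 532.2 and 488.7 RPKM (-0.99). Filip1, a filamin-binding protein, had 5 sites and was at 2.42 and 2.32 against 5.35 and 5.37 RPKM (-1.03 ± 0.07, adjusted p = 0.000218). Tmem86a fell most, at 8.88 and 9.20 against 24.8 and 18.0 RPKM (-1.18 ± 0.13, adjusted p = 0.00158). No library with the Bcl11b guide reached a control guide library in these 4 genes. With 2 libraries per guide and genes picked by their call, this adds no support. Prr5l (-1.17), Ptpn5 (-0.93), Atp8a2 (-0.85), Slc7a3 (-0.84), Ube2l6 (-0.82) and Fos (-0.82) made up the rest of the 10 largest falls. Prr5l passed the filter only through its 2 control guide libraries, and its value is likewise a description.

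**Figure D4:**
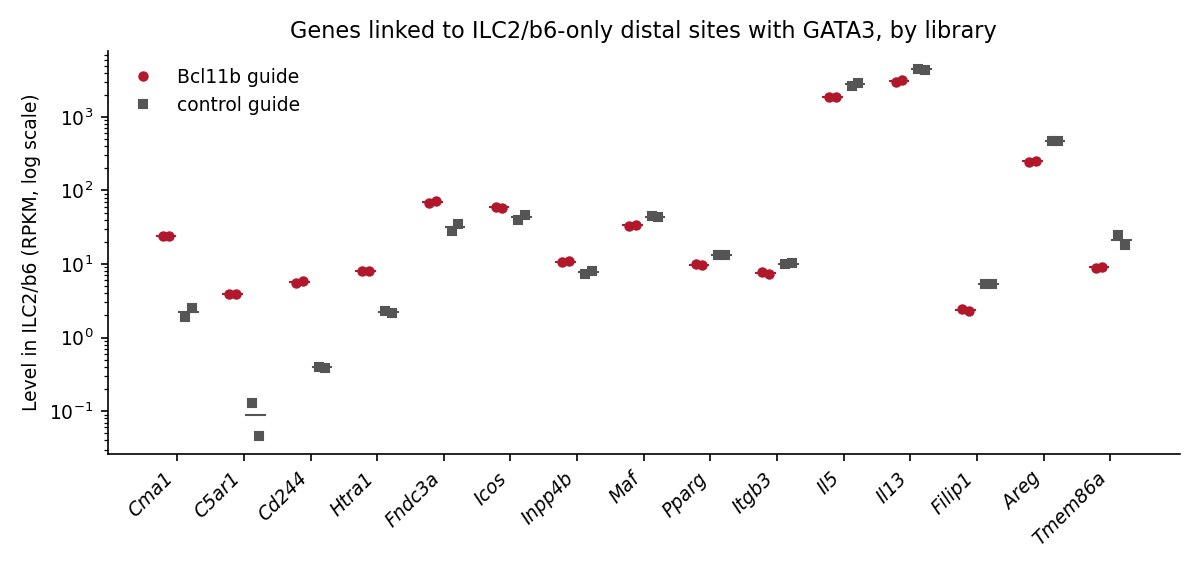
RPKM on a log scale in each ILC2/b6 library for 15 genes with ILC2-only distal Bcl11b sites with GATA3. Points are libraries and lines are group means, Bcl11b guide left of control guide (n = 2 each). Cma1, C5ar1 and Cd244 show the widest gaps, and Areg, Il5 and Il13, the most abundant of them, lie lower with the Bcl11b guide.

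Among ILC2 identity and effector genes, the secreted products Areg, Il5 and Il13 fell with the Bcl11b guide, while the secreted cytokine Lif rose. Il6, Il9, Csf2, Ccl1 and Calca, secreted products that had sites too, were not among the genes called. Gata3 and Il1rl1 did not pass the test. Counts in this and the other gene lists are to be read beside the 13.9% of all measured genes that had a site, the 8.32% higher and 6.21% lower of all genes tested, and the 13.0% higher and 10.8% lower of linked genes tested, and every list was set with results of these data known. Of the 36 ILC2 genes, 25 had at least 1 site (69.4%), 77 sites in all, and of the 24 tested 3 rose (12.5%) and 7 fell (29.2%), with a median log2 fold change of -0.06 against 0.02 over all genes. Il5, the eosinophil growth factor, was at 1881 and 1874 RPKM with the Bcl11b guide against 2671 and 2869 RPKM with the control guide (-0.56 ± 0.05, adjusted p = 0.000518). Il13, the cytokine of goblet cell and smooth muscle responses, was at 3025 and 3151 against 4472 and 4406 RPKM (-0.52 ± 0.04, adjusted p = 0.000487). In both genes each Bcl11b guide library lay below both control guide libraries, which with 2 libraries per guide adds nothing to the call. Il5 and Il13 were no longer called in a fit over all 8 libraries of both lines, with adjusted p of 0.0713 and 0.245.

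Of the 3 sites annotated to Il13, 2 fell in introns 22 and 21 of the neighbouring gene Rad50 (chr11:53468596-53468850, score 123.3, and chr11:53476363-53476617, score 94.1), the part of the mouse locus that holds the locus control region of the type 2 cytokine genes in T helper cells. The other lay at chr11:53440302-53440556 (score 70.6). The Il5 site lay 11694 bp downstream of its start in a LINE copy (chr11:53545863-53546117, Bcl11b score 47.1, GATA3 score 120.6) and was among those with a GATA3 peak in Scid.adh.2c2, with a score of 42.9 there.

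Other genes of the same list moved both ways. Nmur1, the neuromedin U receptor through which nerves activate ILC2, fell to 41.5 and 42.5 RPKM with the Bcl11b guide, against 57.3 and 58.2 RPKM with the control guide (-0.46). Pparg, a lipid-sensing nuclear receptor with 5 sites, fell to 9.97 and 9.64 against 13.2 and 13.3 RPKM (-0.41), and Tnfsf11, the RANK ligand, fell by 0.65 on the log2 scale, and Ets1 by 0.18. Icos, a costimulatory receptor that supports ILC2 survival, had 6 sites, the strongest in its first intron (chr1:61041880-61042134, score 121.9), and rose to 59.0 and 58.4 against 40.1 and 46.1 RPKM (0.45 ± 0.06, adjusted p = 0.00474). The receptor gene Klrg1 (0.18) and the cytokine gene Lif (0.24) rose too. Ets1 and Klrg1 each lost the call when a Bcl11b guide library was left out.

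Gata3, with 5 sites, was at 150.6 and 162.7 RPKM with the Bcl11b guide and 146.4 and 150.7 RPKM with the control guide (0.08, adjusted p = 0.309). Il1rl1, also with 5 sites, was at 313.4 and 322.6 RPKM with the Bcl11b guide and 305.8 and 338.7 RPKM with the control guide (-0.02, adjusted p = 0.854). The receptor genes Il2ra with 4 sites and Il7r with 5 did not pass the test either. A p that misses the threshold does not show that the levels were equal.

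**Figure D5:**
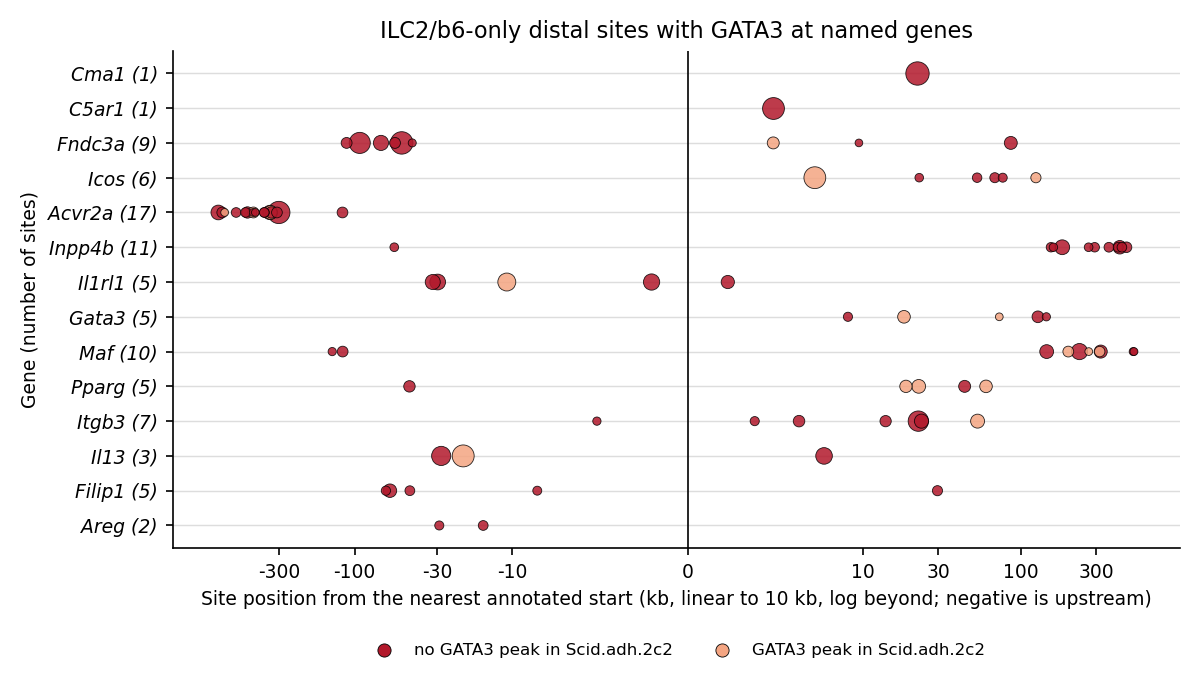
Positions of ILC2-only distal Bcl11b sites with GATA3 relative to the nearest annotated start, in kb, for 14 genes, on a scale that is linear to 10 kb and logarithmic beyond. Point area follows the Bcl11b score and pale points have a GATA3 peak in Scid.adh.2c2. The 17 sites of Acvr2a all lie far from the start, and the 6 sites of Icos all lie downstream of it.

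The genes with the most sites were not those with the largest changes. The non-coding gene 1700061F12Rik on chromosome 2 had 22 sites, 20 with Runx3 and 8 with a GATA3 peak in Scid.adh.2c2, and was at 56.5 and 60.2 RPKM with the Bcl11b guide and 55.0 and 58.4 RPKM with the control guide (0.04, adjusted p = 0.619). Acvr2a, a receptor for activins, had 17 and was at 5.12 and 5.54 against 3.52 and 3.99 RPKM (0.46 ± 0.08, adjusted p = 0.0105), with its strongest site 302442 bp upstream. Inpp4b, a phosphoinositide phosphatase, had 11 sites and was at 10.5 and 10.9 against 7.29 and 8.13 RPKM (0.45 ± 0.06, adjusted p = 0.00474). Acvr2a and Inpp4b rose with no overlap between the guides, which with 2 libraries per guide adds nothing to the call. Of the other 7, the adaptor gene Clnk with 12 sites (0.35) and Pik3r1, a PI3-kinase subunit gene with 10 (0.18), rose, Atp2b1 with 11 did not pass the test, and Mir6388, Dleu2, H2afy3 and 4930459C07Rik had under 1 RPKM in every ILC2/b6 library.

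Of 24 partner and lymphoid transcription factor genes, 18 had 58 sites, and of the 17 tested none rose and 3 fell (17.6%), Ets1, the Aiolos gene Ikzf3 (-0.32) and Runx2 (-0.33, 6 sites), with a median of -0.01. Runx1 with 7 sites, Runx3 with 1, Rbpj with 6 and Notch2 with 4 did not pass the test. Maf, which stood in the list of ILC3 and type 17 genes and encodes a factor of type 2 cytokine control, had 10 sites, 2 of them in the last intron of Wwox, and fell to 33.4 and 34.5 RPKM with the Bcl11b guide, against 44.4 and 43.9 RPKM with the control guide (-0.38 ± 0.04, adjusted p = 0.00131). Of the 4 genes of that list that were tested, Ahr, the aryl hydrocarbon receptor gene, was the one that rose (0.54). Of 30 T-lineage genes, 11 had 19 sites, and of the 6 tested none rose and 2 fell (33.3%), among them the signalling adaptor gene Grap2 (-0.52), with a median of -0.13.

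Surface receptors and signalling genes moved both ways. Of the 10 costimulatory and checkpoint genes tested, with 29 sites on 11 genes, 2 rose (20%), Tnfrsf9 and Icos, and 1 fell, Ctla4 (-0.33), and the median was 0.16. Tnfrsf9, the 4-1BB gene, was at 711.7 and 714 RPKM with the Bcl11b guide against 401.5 and 446 RPKM with the control guide (0.75 ± 0.05, adjusted p = 0.000271), and its site lay 4879 bp upstream (chr4:150289258-150289512, score 167.1). Tigit, with one of the 10 highest-scoring sites and 4 in all, did not pass the test. Of the 9 trafficking genes tested, with 24 sites on 10 genes, 1 rose (11.1%), the chemokine receptor gene Cxcr4 (0.33), and 3 (33.3%), the egress receptor gene S1pr1 (-0.66) and the integrin genes Itgal (-0.25) and Itgb3, fell, with a median of -0.02. Itgb3, with 7 sites, was at 7.91 and 7.36 against 9.91 and 10.4 RPKM (-0.39).

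Of the 16 cytokine signalling genes with a site, all tested and holding 36 sites, 4 rose (25%), Traf1 (0.46), Socs1 (0.24), Stat5a (0.23) and Nfkb1 (0.23), and 5 fell (31.2%), Irf4 (-0.39), Pim1 (-0.34), Prdm1 (-0.25), Cish (-0.16) and Il4ra (-0.15), with a median of 0.09. Socs1, Stat5a, Nfkb1, Prdm1, Cish and Il4ra each lost the call when 1 library was left out, as did Cxcr4, Dusp4 and Pik3r1 of the other groups named. Of the 8 immediate early genes tested, with 17 sites on 10 genes, Ier3 (0.56) and Dusp4 (0.23) rose (25%) and Egr1 (-0.78), Dusp1 (-0.77), Ier2 (-0.40) and Fos fell (50%), with a median of -0.25. Egr1, a zinc-finger factor induced by growth and antigen signals, was at 16.8 and 16.5 RPKM with the Bcl11b guide against 27.6 and 30.4 RPKM with the control guide. Of the 4 natural killer genes tested, Cd244 was the one called, but it passed the filter only through the Bcl11b guide libraries, as described above. The single B-cell gene with a site, Pax5, was at 0 in all 4 libraries. Epcam, the 1 stromal or epithelial gene with a site, rose (0.46).

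In Scid.adh.2c2 none of the sites had a Bcl11b peak by definition, but most of their genes had a Bcl11b site elsewhere. Of 1847 linked genes tested there, 866 were higher (46.9%, against 35.1% of all 10221 genes) and 333 were lower (18.0%, against 22.7%). The 1546 of them with a Bcl11b site of Scid.adh.2c2 elsewhere were higher in 48.2%, and those without one in 40.2%. Other sets lay close, at 45.3% higher and 19.5% lower for genes linked to shared distal sites and 44.3% and 18.8% for genes linked to ILC2-only distal sites with Runx and without GATA3. With median centring, which moved the median of all genes from 0.05 to -0.08, the counts were 643 and 572. Without Bcl11b guide replicate 2 of that line, 214 were lower. A gene under 1 RPKM in both control guide libraries was tested only if both Bcl11b guide libraries reached 1 RPKM. The rise of such a gene was fixed by the filter, in linked genes and in all genes alike. Among the named genes, 19 entered the Scid.adh.2c2 fit in this way, and 0 entered only through the control guide libraries. The difference between the guide effects, ILC2/b6 minus Scid.adh.2c2, passed the test for 1210 of 2349 linked genes (51.5%, against 45.1%), with 360 positive (15.3%, against 18.0%) and 850 negative (36.2%, against 27.1%).

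Among 1732 linked genes tested in both lines, 234 were called in both, of which 109 were higher in both, 29 lower in both, 79 lower in ILC2/b6 and higher in Scid.adh.2c2 (33.8%), and 17 the other way (7.27%). Over all 9147 genes tested in both, 786 were called in both, and these last classes held 202 (25.7%) and 87 (11.1%). The limit that the filter sets on higher calls in Scid.adh.2c2 holds for these classes too. Il13 was at 7.65 and 8.43 RPKM with the Bcl11b guide against 2.21 and 0.816 RPKM with the control guide in Scid.adh.2c2 (log2 fold change 2.18), while it fell in ILC2/b6. Egr1 was at 3.96 and 3.90 RPKM against 0.328 and 0.329 RPKM there, and passed the filter of that line only through the Bcl11b guide libraries, so this is a description. In the fit of the difference it also passed through all ILC2/b6 libraries. For both genes the difference between the lines passed the test, with adjusted p of 0.000694 for Il13 and 1.18e-07 for Egr1.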

How the data were processed

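ChIP-seq (16 libraries, 8 inputs not used here) and RNA-seq (8 libraries) came from 2 mouse lines, with single 50-nt reads. Per the file headers, the authors' deposited peak lists, 1 per factor and line from 2 pooled libraries, come from HOMER on mm9 with IDR filtering. They give a peak score, a focus fraction and annotation, with deposited scores of at least 15. The authors' deposited RNA tables give RPKM per library. The submitters' processing notes name Bowtie 1.1.1, HOMER, STAR 2.4.0, RSEM 1.2.25, edgeR 3.6.8 and Trimmomatic. The sources used here do not give the input set against each ChIP, and no label says that the RNA kit marks strand.

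Peaks were intersected by at least 1 bp (Python 3.11.15, pandas 2.3.3, numpy 2.4.6). Sites were linked to the gene in the lists' own annotation, by gene name for 5347 sites and by RefSeq accession for 342, while 95 led to genes not in the RNA tables and 1 to none. Genes that reached 1 RPKM in 2 or more libraries of a fit entered limma 3.58.1 under R 4.3.3, on log2(RPKM + 0.5) and with its trend option. Benjamini-Hochberg adjustment ran over every gene tested, with a threshold of 0.05. Fold changes on this scale understate the change of low genes. ILC2/b6 and Scid.adh.2c2 were fitted separately (4 libraries each), and the difference of their guide effects over all 8. Low RPKM values came out as whole reads within 0.1 read in 100% of 2654 to 3161 values per library, which gave the depths. Genes named were the 10 with most sites, the 10 largest called rises and falls, members of 12 gene lists with a site, and those at the 10 highest-scoring sites. The gene sets, the sites and the lists were chosen with earlier results of these data known. The fit was tested on simulated data. Results for 1 gene of the lists are not reported here. Promoter sequences are RefSeq's (GRCm38.p6).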

Additional observations from a re-analysis of the deposited data

Results flagged for a closer look

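For 24 of the named genes the guide effect differed between the lines by the test of the difference itself, given here as the ILC2/b6 effect minus the Scid.adh.2c2 effect on the log2 scale (limma, interaction over 8 libraries, Benjamini-Hochberg adjusted p below 0.05) with both effects called. The effects had opposite directions in 14 genes and the same direction in 10. Both effects were called in the fit of each line alone. In the fit over 8 libraries the ILC2/b6 effect was no longer called for Il13, Ikzf3, Prdm1, Klrg1 and Lif. Among genes that fell in ILC2/b6 and rose in Scid.adh.2c2, the difference was -3.20 for Egr1, -2.97 for Ube2l6, -2.70 for Il13, -2.25 for Ptpn5, -2.09 for Tmem86a, -2.01 for Itgb3, -1.99 for Itgal, -1.96 for Prdm1, -1.58 for Ikzf3, -1.40 for Irf4, -1.04 for Pim1 and -0.51 for Ets1. Cxcr4 (0.74) and Stat5a (0.57) rose in ILC2/b6 and fell in Scid.adh.2c2.

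Genes that rose in both lines differed by -3.18 for Slc2a6, -2.50 for Cysltr2, -2.04 for Lif, -1.35 for Avil, -1.27 for Klrg1 and -0.52 for Nfkb1, being less in ILC2/b6, and by 1.2 for P2rx1, 0.72 for Fndc3a and 0.33 for Mgat5, being more. Fabp5 fell in both lines, by less in ILC2/b6 (0.83). In Scid.adh.2c2, 10 of these genes (Klrg1, Lif, Prdm1, Irf4, Egr1, Slc2a6, Avil, Cysltr2, Ptpn5 and Ube2l6) passed the filter on low values only through the Bcl11b guide libraries, so their call in that line is no support. All 10 had at least 1 RPKM in every ILC2/b6 library. The sites at these genes had no Bcl11b peak in Scid.adh.2c2 by choice, and their part in these differences was not tested.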

How the results depend on the processing

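With ILC2/b6 peaks at or above the median score of their list there were 2529 sites, of which 86.75% had Runx3, 81.34% Runx1 and 22.82% a Scid.adh.2c2 GATA3 peak, and the linked genes called were 186 higher and 158 lower in ILC2/b6, 480 and 173 in Scid.adh.2c2, and 696 by the difference, from fewer sites. The Runx3 share was 89.46% and the Runx1 share 84.76% with an overlap of at least 50% of the shorter interval. At 2.5 kb or more from a start they were 91.77% and 87.05%. With no Scid.adh.2c2 Bcl11b peak within 1 kb, Runx3 was at 91.84% and Scid.adh.2c2 GATA3 at 18.82%. With no filter on low values 17 linked genes were higher and 18 lower in ILC2/b6 and 188 lower in Scid.adh.2c2. Scid.adh.2c2 lower genes numbered 572 with median centring and 573 with quantile normalization. The median-score cut applied to the GATA3, Runx1 and Runx3 lists of ILC2/b6 too, so weaker partner peaks no longer counted there. The cause of these shifts was not tested.

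Leaving out each library in turn gave 153 to 379 higher and 142 to 282 lower linked genes in ILC2/b6, 584 to 997 and 214 to 406 in Scid.adh.2c2, and 987 to 1239 by the difference. Called in every such fit were 129 of 290 and 117 of 242 in ILC2/b6. Gzmb in Scid.adh.2c2 (-0.14, adjusted p = 0.731 by limma) was at 0.42 without control guide replicate 1 (adjusted p = 0.00433) and at -0.69 without control guide replicate 2. Of 62 named genes called in ILC2/b6, 50 kept the call in a fit over 8 libraries, 51 without the variance trend, 58 with median centring and 6 with no filter on low values. Those lost in the fit over 8 libraries included Il5, Il13, Pparg, Lif, Ikzf3, Prdm1 and Klrg1. Apart from the Gzmb reversal, 2229 alternatives of the single-gene results kept their side of the threshold, 140 lost the call and 56 gained it. A change of direction in a gene called in neither fit counted as kept.

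The labels number replicates 1 and 2 in each group, but same-numbered libraries deviated together only weakly (correlation 0.107 in ILC2/b6 and 0.0373 in Scid.adh.2c2, over 2 pairs). So few pairs cannot tell whether same-numbered libraries were grown or prepared together. With a replicate block 372 linked genes were higher and 321 lower in ILC2/b6, 870 and 326 in Scid.adh.2c2, and 1141 differed.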
